A study of Mus musculus with 32 samples.

Results

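Resident conventional dendritic cells (DC) of the skin-draining lymph nodes of mice were compared between their 2 lineages, cDC2 and cDC1, by the open chromatin of 12 of the 32 deposited libraries. The 6 cDC2 and the 6 cDC1 libraries were taken by their cell type label, and the labels also name the cells by a surface protein, CD11b for cDC2 and CD8a for cDC1. All 12 came from mice with floxed Ifngr1 alleles (IFNgr1flfl), 3 libraries of each subset without Cre recombinase (CD11cCREneg) and 3 with it (CD11cCREpos); Cre under the CD11c promoter acts in DC but is not limited to one subset, and age and strain are not given. Ifngr1 encodes a chain of the interferon-γ receptor, whose effect on DC chromatin was the question of the series, and here the genotype served only as a stratum. Omni-ATAC-seq was used, where Tn5 transposase cuts and tags accessible DNA, and each library is a list of peaks with a signal value. The labels do not say that libraries came from separate animals, so p-values rest on the spread among these libraries only, which can be technical.

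The 2 lineages divide the work of antigen presentation. cDC1 take up dead cells through receptors such as DNGR-1 (Clec9a), cross-present antigen to CD8 T cells and carry the chemokine receptor XCR1, and their fate is set by IRF8, BATF3 and ID2. cDC2 carry SIRPα and CD11b, prime CD4 T cells, and depend on factors such as IRF4, ZEB2, RELB and, for some of them, NOTCH2 and KLF4. Chromatin accessibility marks the promoters and enhancers that transcription factors can reach; it does not measure transcription.

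cDC2 lists were shorter. They held 47118 ± 7563 peaks (SD, n = 6, range 38455 to 56115) and cDC1 lists 62153 ± 6679 (n = 6, range 50682 to 69544), a difference of -15036 (exact permutation within genotype, two-sided p = 0.01, 0.005 being the smallest possible). The bases covered did not differ by this test (38.9 Mb in cDC2, 44.4 Mb in cDC1, exact p = 0.225). In the full lists the median cDC2 peak was wider (628 against 535 bp, exact p = 0.005). Among the 38455 strongest peaks of each list it was not (741 against 763 bp, exact p = 0.725). Depth is unknown, as the lists give no read counts. All comparisons below therefore kept the 38455 strongest peaks of each list, the length of the shortest, and "called" means that such a peak overlapped a region; a peak's rank is its place by signal in its own list, 1 being the strongest. One library stood apart: the second Cre-negative cDC1 library had a median width of 389 bp, against 532 to 588 bp in the other cDC1 libraries, and had peaks at 68.5% of the regions that distinguish cDC1, against 96.9 to 99.3% in the other 5. Results that lean on it are given without it; fewer relabelings then remain and only complete separations can pass, so such counts are lower by construction. All cDC1 libraries have titles numbered 1 to 6 and all cDC2 libraries 7 to 12, so any effect of handling order and subset cannot be told apart.

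**Figure D1:**
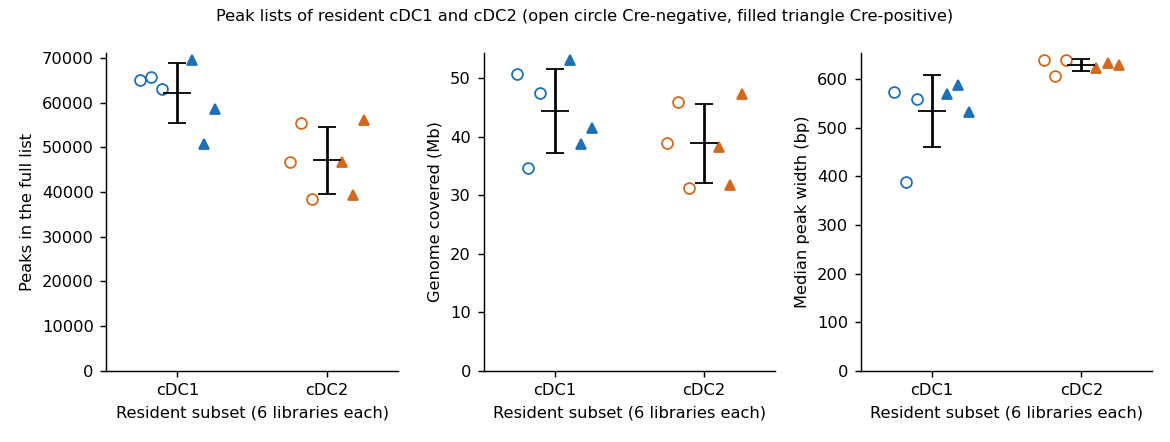
Number of peaks, megabases covered and median peak width of each full list, by subset. Each point is a library, and black bars are the mean and SD over 6 libraries. cDC2 lists had fewer and wider peaks, and the lone low cDC1 width is 389 bp.

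The promoters that were open in one subset alone give the plainest view of the difference. The 250 bases before the start of Xcr1 (chr9:123862030-123862279, minus strand) and of Clec9a (chr6:129408612-129408861, plus strand) lay in regions with a peak in 6 of 6 cDC1 and 0 of 6 cDC2 libraries, also in the full lists, and are shown because both genes mark cDC1. The same held for Cd8a (chr6:71373177-71373426, plus strand), the gene of the protein by which the labels name cDC1. The opposite pattern, 0 of 6 cDC1 and 6 of 6 cDC2 libraries, held at a start of Il1rn (chr2:24345121-24345370, plus strand), the interleukin-1 receptor antagonist, of Cd300ld (chr11:114989887-114990136, minus strand), a receptor of the CD300 family of myeloid cells, and of Retreg1 (chr15:25940452-25940701, plus strand), a receptor for autophagy of the endoplasmic reticulum. These 4 were chosen after their values were seen. The sequences are those of RefSeq (GRCm38.p6, the coordinates of mm10), 5′ to 3′, with matches to the motifs given after them in capitals.
Xcr1: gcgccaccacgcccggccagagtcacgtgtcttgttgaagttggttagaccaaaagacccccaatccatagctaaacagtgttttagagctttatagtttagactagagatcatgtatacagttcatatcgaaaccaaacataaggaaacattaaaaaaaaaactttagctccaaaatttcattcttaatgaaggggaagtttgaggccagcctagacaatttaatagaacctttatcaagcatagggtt
Clec9a: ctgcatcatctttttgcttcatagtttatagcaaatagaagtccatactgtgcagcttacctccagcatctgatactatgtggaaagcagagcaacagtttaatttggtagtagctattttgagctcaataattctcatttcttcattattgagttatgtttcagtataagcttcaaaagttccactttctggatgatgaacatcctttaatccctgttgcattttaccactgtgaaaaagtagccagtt
Cd8a: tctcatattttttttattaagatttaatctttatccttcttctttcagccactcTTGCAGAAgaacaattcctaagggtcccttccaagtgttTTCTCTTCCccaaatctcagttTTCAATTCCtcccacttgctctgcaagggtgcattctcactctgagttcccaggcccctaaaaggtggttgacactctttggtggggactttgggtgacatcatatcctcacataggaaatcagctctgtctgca
Il1rn: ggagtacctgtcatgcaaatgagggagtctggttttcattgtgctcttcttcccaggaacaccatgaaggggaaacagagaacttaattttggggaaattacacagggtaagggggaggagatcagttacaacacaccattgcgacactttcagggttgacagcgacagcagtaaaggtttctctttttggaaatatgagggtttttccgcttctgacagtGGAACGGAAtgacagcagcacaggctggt
Cd300ld: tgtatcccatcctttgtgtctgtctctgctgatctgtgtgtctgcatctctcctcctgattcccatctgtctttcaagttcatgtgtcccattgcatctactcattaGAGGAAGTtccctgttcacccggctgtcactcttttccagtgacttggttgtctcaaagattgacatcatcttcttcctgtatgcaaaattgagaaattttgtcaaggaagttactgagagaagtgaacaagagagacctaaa
Retreg1: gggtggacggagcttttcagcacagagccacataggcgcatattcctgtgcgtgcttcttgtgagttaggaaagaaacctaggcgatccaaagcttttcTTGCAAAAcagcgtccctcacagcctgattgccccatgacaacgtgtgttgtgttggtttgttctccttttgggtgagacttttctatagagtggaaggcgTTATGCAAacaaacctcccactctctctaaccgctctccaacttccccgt

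The capitals mark a composite PU.1-IRF sequence, GGAANNGAA, in Cd8a (both matches on the other strand) and Il1rn, a C/EBP sequence, TTGCNNAA, in Cd8a and Retreg1, and a PU.1 sequence, GAGGAAGT, in Cd300ld. No searched motif had a match in the windows of Xcr1 and Clec9a. In all, 7 motifs were searched on both strands; GAGGAAGT can overlap GGAANNGAA, and such promoters count for both.

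Of 90465 consensus regions, 23565 were called in all 12 libraries and 17470 varied enough to be tested. Regions called more often in cDC2 numbered 3625 (20.7%) and regions called less often 4475 (25.6%; exact test within genotype, Benjamini-Hochberg adjusted p of 0.05 or below). Complete separation was common: 2055 regions had a peak in 6 of 6 cDC2 and 0 of 6 cDC1 libraries, and 2319 the reverse (exact test, adjusted p = 0.02 for either). Pairs of libraries of the same subset shared more regions than pairs of different subsets. Their Jaccard similarity, the shared regions over those called in either, was 0.814 on average within cDC1 (15 pairs, 0.706 to 0.888), 0.856 within cDC2 (15 pairs, 0.825 to 0.881) and 0.651 between subsets (36 pairs, 0.625 to 0.675). The mean within subsets exceeded that between them by 0.184 (exact permutation p = 0.01, the smallest possible). Genotype made little difference to these means: pairs of the same genotype had 0.812 within cDC1 and 0.853 within cDC2, and pairs of different genotype 0.816 and 0.857.

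With the full lists the balance moved towards cDC1. Of 31371 regions tested there, 677 were called more often in cDC2 (2.16%) and 4202 less often (13.4%), and 566 and 2025 regions passed in the same direction with both list lengths, none in opposite directions. A region called more often in cDC2 among the strongest peaks was often present, but weak, in cDC1: 764 of the 3625 (21.1%) had a peak in all 6 full cDC1 lists and 637 (17.6%) in none. Of the 4475 regions called less often in cDC2, 2 (0.0447%) had a peak in all 6 full cDC2 lists and 2275 (50.8%) in none. The cut limits this contrast, as the shortest cDC2 list kept 100% of its peaks and another 97.8%. A region missing from the shortest list could not reach 6 of 6 full cDC2 lists. The cDC1 lists kept 55.3 to 75.9% and so had more peaks to regain. Calls in lists of equal length therefore state relative strength. Of those towards cDC2 566 also passed with the authors' full lists, and of those towards cDC1 2025.

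Most regions that differed lay away from gene ends. Within 1000 bp of a gene end lay 10.1% of tested regions, 9.79% of those more often and 6.15% of those less often called in cDC2, and 42.8% of those called in all 12 libraries. Gene bodies held 50.2% of tested regions, 48.7% of those more often and 56.9% of those less often called. Among the 23565 shared regions the ranks were compared, and 5205 were stronger in cDC2 (22.1%) and 4317 stronger in cDC1 (18.3%; exact permutation of the mean rank within genotype, adjusted p of 0.05 or below).

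The same motifs were searched in the 250 bases before each RefSeq start. Of 21044 such windows, 133 lay in regions called more often in cDC2 and 63 in regions called less often. The AP-1 sequence TGANTCA occurred in 14.3% of the former and 6.35% of the latter, against 7.04% of all windows and 8.72% of those in tested regions. GAGGAAGT occurred in 4.51% and 11.1% (3.15% of all windows), and GGAANNGAA in 6.77% and 11.1% (7.6%). The IRF sequence GAAANNGAA occurred in 14.3% and 12.7% (8.09%), TTGCNNAA in 15% and 9.52% (10.3%), the RUNX sequence TGTGGT in 17.3% and 20.6% (14.8%), and the KLF sequence CCACACCC in 4.51% and 1.59% (3.64%). These shares are descriptions over few promoters, and a match is not a binding site.

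The loci of the 4 genes that define the subsets followed the labels, with exceptions at Irf4. At Xcr1, the chemokine receptor by which cDC1 find XCL1-secreting cells, the region over the start (chr9:123861728-123862357) was called in 6 of 6 cDC1 libraries, at ranks 6083 to 37803 (median 24743), and in 0 of 6 cDC2 libraries (exact test, adjusted p = 0.02). The lowest of these ranks came from the library with narrow peaks, and the call held without it. A region in the gene body (chr9:123856716-123857512) was called in 5 of 6 and 0 of 6 libraries (exact test, adjusted p = 0.0431), though with full lists 2 cDC2 libraries had it.

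Irf8 encodes the factor on which cDC1 depend, and its locus was open in both subsets but more so in cDC1. Of 10 tested regions 6 were called less often in cDC2 and 0 more often, and all 5 shared regions were stronger in cDC1. The promoter (chr8:120735508-120737156) had ranks 2840 to 5129 in cDC1 (median 4513) and 6928 to 7900 in cDC2 (median 7166), without overlap. The widest gap was at chr8:120768149-120769432, a distal region beyond the gene, whose first base is chr8:120736358. Ranks there were 8042 to 8699 in cDC1 (median 8543) and 24582 to 30914 in cDC2 (median 26572). The difference of mean ranks was 18881 (exact permutation p = 0.005, adjusted p = 0.0179). The 6 cDC1 libraries lay close together there, and no cDC2 library came near them. An enhancer downstream of Irf8 that BATF3 binds is known in cDC1; whether this region is that element was not tested. Further regions were missing from cDC2 lists of equal length, in the gene body (chr8:120745070-120745908 and chr8:120747245-120748882) and beyond the gene (chr8:120774163-120774892 and chr8:120783829-120784667), each with a peak in all 6 cDC1 libraries and in none of the 6 cDC2 libraries. Of these 4 only the last was missing from every full cDC2 list as well.

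Sirpa encodes SIRPα, the receptor for CD47 that marks cDC2, and 3 of its 4 tested regions were called more often in cDC2 and 0 less often. A distal region (chr2:129569984-129571157) and one in the gene body (chr2:129600868-129602547) had peaks in all 6 cDC2 and in none of the 6 cDC1 libraries with either list length. The first had ranks 14235 to 24423 in cDC2 (median 19521). All 3 shared regions were stronger in cDC2: the one in the gene body at chr2:129595221-129596808 had ranks 4311 to 6698 in cDC2 (median 5065) and 13302 to 16196 in cDC1 (median 14254; exact p = 0.005, adjusted p = 0.0179).

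Irf4, a factor of cDC2 function, showed both directions. Its promoter region (chr13:30748500-30751517) had ranks 8144 to 10656 in cDC2 (median 9005) and 14643 to 17180 in cDC1 (median 15671), stronger in cDC2. A distal region at -10.6 kb (chr13:30738203-30738966) was stronger in cDC1, with ranks 11899 to 15574 (median 13600) against 17599 to 21192 (median 18286). In neither region did the subsets overlap (exact permutation, adjusted p = 0.0179 for both). Of 3 tested regions 1 passed, at 20.2 kb (chr13:30769094-30769713), called in 5 of 6 cDC2 but 0 of 6 cDC1 libraries (exact test, adjusted p = 0.0431).

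**Figure D2:**
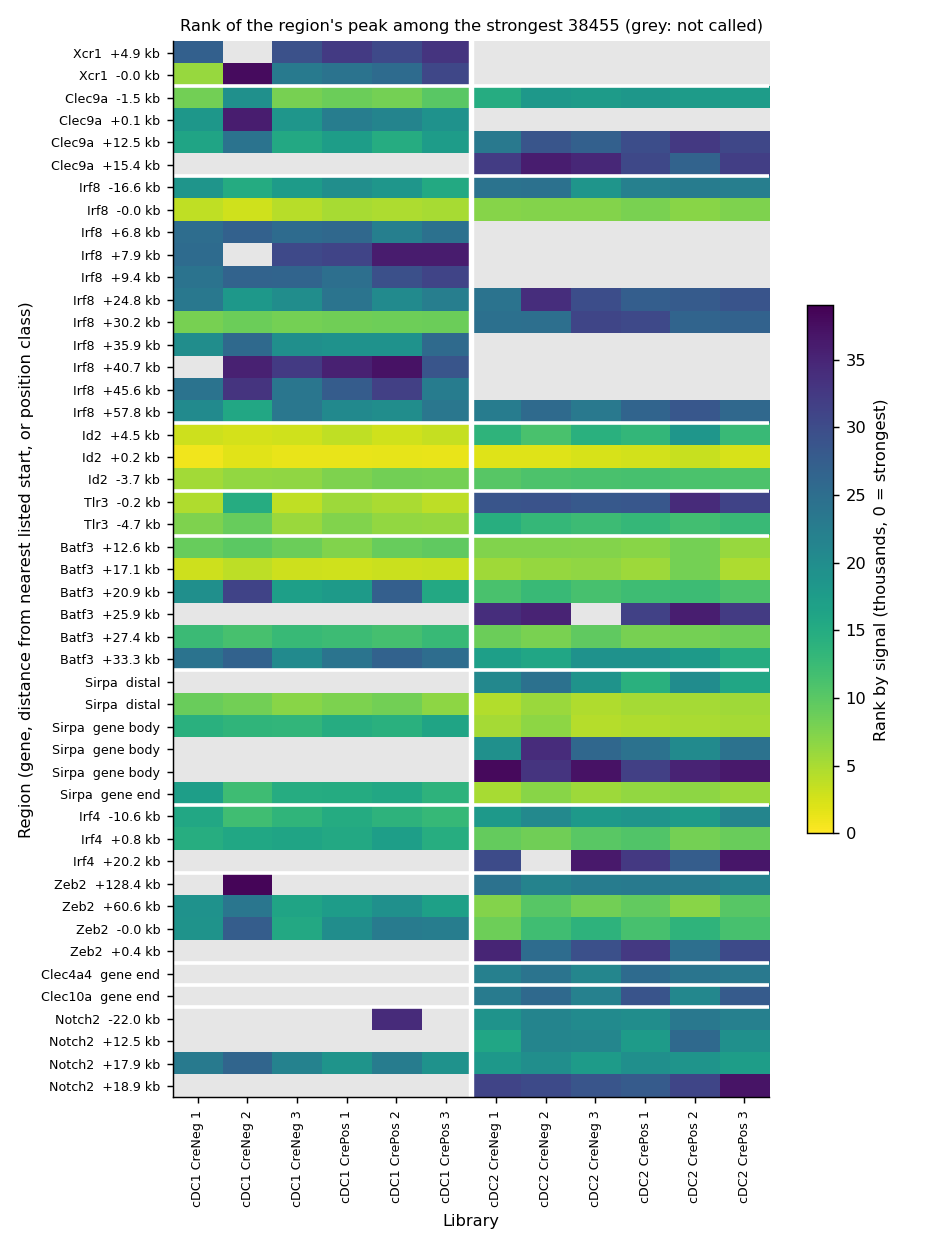
Rank by signal of the peak over each region of 12 marker and lineage factor genes, one row per region that passed either test (47 rows) and one column per library; grey means not called among the strongest peaks. Grey blocks at Xcr1 and Irf8 lie on the cDC2 side and those at Sirpa, Clec4a4 and Clec10a on the cDC1 side, while Batf3 and Irf4 hold rows of both directions.

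Other transcription factors of the DC lineages had regions of both directions. Id2, whose product restrains E proteins in cDC1, had no tested region, but 3 of 5 shared regions were stronger in cDC1; beside the gene, chr12:25089193-25093953 had ranks 2451 to 3679 in cDC1 (median 2923) and 11270 to 18488 in cDC2 (median 13393). Batf3, required for cDC1, did not stand out as a cDC1 locus. Its promoter did not differ by the test (ranks 5958 to 9909 in cDC1 and 6228 to 11339 in cDC2; exact p = 0.6, adjusted p = 0.714). Of its 7 shared regions 4 were stronger in cDC2, such as chr1:191118657-191120035 with ranks 10875 to 12587 against 15477 to 31086 in cDC1, and 1 was stronger in cDC1 (chr1:191114613-191116362, 2838 to 3922 in cDC1 against 4754 to 8077).

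Zeb2, a repressor that favours cDC2, had 2 of 3 tested regions called more often in cDC2, and both shared regions were stronger there. The region over an internal start (chr2:45109134-45111459) had ranks 8582 to 13846 in cDC2 (median 11695) and 15461 to 27502 in cDC1 (median 21218). At a listed start at the gene end (chr2:45116507-45117572) 6 of 6 cDC2 and 0 of 6 cDC1 libraries had a peak, though 1 full cDC1 list had one. In the full lists a region at -7.2 kb went the other way, with 6 cDC1 and 0 cDC2 libraries.

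Spi1 encodes PU.1, the factor of all myeloid lineages, and changed in both directions. Of its 7 shared regions 1 was stronger in cDC2 and 2 in cDC1. The region over its start (chr2:91081675-91088254) did not differ by the test, at ranks 257 to 3328 in cDC2 and 275 to 7820 in cDC1 (exact permutation, adjusted p = 0.911). A neighbouring region (chr2:91079985-91081507) was stronger in cDC1, at ranks 3517 to 6096 against 8972 to 11745. In the gene body chr2:91091241-91092255 was stronger in cDC2, at 13403 to 15986 against 28127 to 36171. Zbtb46, expressed by conventional DC of both kinds, had 1 region more and 2 less often called in cDC2 of 5. Klf4 and Relb, factors of cDC2, had no tested region. Their promoters ranked among the strongest peaks of every library, Klf4 at 158 to 215 in cDC2 and 174 to 679 in cDC1 (exact p = 0.025, adjusted p = 0.0593), and Relb at 457 to 724 and 499 to 671 (exact permutation, adjusted p = 0.722). Over the whole list of DC transcription factors 35 of 136 tested regions (25.7%) had more calls and 27 (19.9%) fewer calls in cDC2. Of all tested regions 20.7% had more and 25.6% fewer. Without the cDC1 library with narrow peaks the list had 21 more and 23 fewer, and all regions 2397 and 3727. With full lists it had 4 more and 26 fewer of 209 (1.91% and 12.4%), near the 2.16% and 13.4% of all regions tested there.

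Genes of the cDC1 programme held regions missing from cDC2. Of 130 tested regions of 32 such genes 66 (50.8%) were called less often and 7 (5.38%) more often, and 58 and 2 without the cDC1 library with narrow peaks. Without Wdfy4, the gene with the most such regions, the counts were 50 less (50.5%) and 7 more of 99. Among all tested regions 25.6% were called less and 20.7% more often. Of the 79 shared regions of the 32 genes 37 (46.8%) were stronger in cDC1 and 9 (11.4%) in cDC2, against 18.3% and 22.1% of all shared regions. Wdfy4, which cross-presentation requires, had 16 of 31 tested regions less often called and 0 more often. In the gene body chr14:33052433-33054512 had a peak in 6 of 6 cDC1 libraries at ranks 12496 to 18938 (median 14684) and in no cDC2 library. Cadm1, an adhesion molecule of cDC1, had 7 of 11 less often called, and its shared region chr9:47661278-47662089 had ranks 8309 to 10617 in cDC1 and 27249 to 36765 in cDC2. Rab7b, an endosomal GTPase, had 5 of 7 and Fgd6, an exchange factor for CDC42, 5 of 6.

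Tlr3, the sensor of double-stranded RNA used by cDC1, had a promoter that was open in all 12 libraries with unequal strength. Ranks at chr8:45409615-45411480 were 3787 to 14929 in cDC1 (median 4796) and 28181 to 34185 in cDC2 (median 28896; difference of mean ranks 23649, exact p = 0.005, adjusted p = 0.0179). The cDC1 library at 14929 was that with narrow peaks, and the subsets did not overlap with or without it. Itgae, the gene of CD103, had 1 shared region, stronger in cDC1 (chr11:73092571-73093998, 4605 to 7475 against 10436 to 13299). At Clec9a the start region had no peak in any cDC2 library. A region at the other end of the gene (chr6:129424032-129424568) was called in 6 of 6 cDC2 but 0 of 6 cDC1 libraries, though in 4 full cDC1 lists. Both shared regions of Clec9a (chr6:129406756-129407907 and chr6:129421004-129421795) were stronger in cDC1 (exact permutation of the mean rank, adjusted p = 0.0495 and 0.0298). Clec1a, the neighbouring lectin gene, had 3 of 3 tested regions more often called.

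Genes of the cDC2 programme held regions of both directions. Of 59 tested regions of 31 genes 21 (35.6%) had more calls and 9 (15.3%) fewer calls in cDC2, 16 and 7 without the cDC1 library with narrow peaks. Among all tested regions 20.7% had more and 25.6% fewer calls. With full lists 6 of 102 regions of the cDC2 genes were called more often (5.88%) and 10 less often (9.8%), against 2.16% and 13.4% of all regions tested there. With both list lengths 6 passed as more and 5 as less often called. The starts of Clec4a4, encoding the inhibitory lectin DCIR2 of cDC2 (chr6:122989784-122990469), and of Clec10a, a lectin for galactose-type sugars (chr11:70166194-70166895), had a peak in every cDC2 library and in 0 of 6 cDC1 libraries. Their ranks in cDC2 were 21106 to 25376 and 21002 to 28838. Esam, which marks the NOTCH2-dependent cDC2, had 1 tested region, called in 4 cDC1 and 3 of the cDC2 libraries (exact test, adjusted p = 1.0), and its shared region at the gene end overlapped between subsets.

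Some genes known from cDC2 or monocytes had regions open in cDC1 instead. Rbpj, the nuclear effector of Notch, had 3 of 7 tested regions less often called and 0 more often, and 5 of 7 shared regions were stronger in cDC1. Ccr2, the receptor that monocytes use to leave the marrow, had a distal region (chr9:124079827-124080269) in 5 of 6 cDC1 and 0 of 6 cDC2 libraries. Notch2 itself had 3 of 4 tested regions called more often in cDC2 in lists of equal length, such as chr3:98025392-98026743 at ranks 15890 to 25665, but 4 to 6 of the full cDC1 lists held each of them. Over the Notch pathway list 11 of 48 regions (22.9%) were called more often and 12 (25.0%) less often, near the 20.7% and 25.6% of all tested regions.

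Itgam encodes CD11b, the protein that names cDC2 in the labels, and its locus was mixed. Of 6 tested regions 2 were called less often in cDC2 and 0 more often; chr7:128080033-128080488 in the gene body had a peak in 6 of 6 cDC1 and 0 of 6 cDC2 libraries. The promoter (chr7:128062257-128062999) was called in 6 cDC2 libraries at ranks 9361 to 24309 and in 3 cDC1 libraries at 34120 to 38277, which did not pass (exact test, adjusted p = 0.249). Of 4 shared regions 2 were stronger in cDC2, such as chr7:128088831-128089793 with 9390 to 16333 against 15980 to 24432. Genotype separated the libraries at 2 of the 4 shared regions, in both subsets; at the other 2 the genotypes overlapped. At chr7:128088831-128089793 the Cre-positive libraries had ranks 15980, 16908 and 18780 in cDC1 and the Cre-negative ones 23436, 23507 and 24432, and in cDC2 9390, 11040 and 12343 against 13628, 14549 and 16333. At the end of the gene (chr7:128117557-128117902) all 3 Cre-positive and none of the Cre-negative cDC2 libraries had a peak. Itgam neighbours Itgax, the gene whose promoter drives the Cre transgene; its part in these values was not tested.

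Genes of inflammatory signalling held many regions called more often in cDC2. In the list of NF-κB factors and regulators 15 of 36 tested regions (41.7%) were called more often and 2 (5.56%) less often, 9 and 2 without the cDC1 library with narrow peaks. Rel had 2 of 3 and Nfkb1 3 of 5 more often called. In the list of AP-1 and MAF factors 17 of 43 (39.5%) were called more often and 5 (11.6%) less often, 12 and 4 without that library. Over all tested regions the shares were 20.7% more and 25.6% less often called. Fosl2 had 5 of 8 more often called, among them chr5:32154803-32156530 in 6 of 6 cDC2 and 0 of 6 cDC1 libraries. Fos itself went the other way, with 3 of 7 less often called and 0 more often. With full lists, where 2.16% of all tested regions were called more and 13.4% less often, the NF-κB list had 4 more and 4 less of 53 (7.55% each) and the AP-1 and MAF list 3 more and 4 less of 65 (4.62% and 6.15%).

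Il1r2 held most of the calls towards cDC2 among cytokines and IL-1 family receptors. Of 45 tested regions of cytokines and IL-1 family receptors 19 (42.2%) were called more often and 8 (17.8%) less often, 12 and 5 without the cDC1 library with narrow peaks. Il1r2, encoding the decoy receptor for interleukin-1, had 12 of 14 more often called and 0 less often. The other 31 regions had 7 (22.6%) more and 8 (25.8%) less often called, close to the 20.7% and 25.6% of all tested regions. With full lists the whole list had 7 and 7 of 75 (9.33% each), against 2.16% and 13.4% of all regions tested there. The Il1r2 gene body region chr1:40096939-40098878 was called in 6 of 6 cDC2 libraries at ranks 4051 to 28286 (median 16190) and in no cDC1 list of either length. The shared region chr1:40114587-40118896 had ranks 2002 to 8403 in cDC2 (median 4194) and 22858 to 28080 in cDC1 (median 26350; exact p = 0.005, adjusted p = 0.0179). Il1rn had both of its tested regions called in 6 of 6 cDC2 but 0 of 6 cDC1 libraries, again with either list length. Il1r1 and Il1rap, chains of the signalling receptor, each had 1 region less often called with both list lengths, and Il1r1 also 1 more often called among the strongest peaks. Il12b, the cytokine subunit with which cDC1 drive Th1 responses, had 2 of 4 less often called and both shared regions stronger in cDC1.

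Receptors for pathogens and for complement had regions of both directions. C5ar1, the receptor for the anaphylatoxin C5a, had all 4 tested regions called more often in cDC2; chr7:16257793-16258227 had ranks 22372 to 30446 in 6 of 6 cDC2 libraries and no peak in cDC1. Among Toll-like receptors 4 of 17 tested regions were called more often and 4 less often (23.5% each), near the 20.7% and 25.6% of all tested regions. Tlr11 and Tlr12, sensors of profilin, held 3 of the 4 less often called, and Tlr5, the sensor of flagellin, held 2 of the 4 more often called. Of the 34 regions of C-type lectin receptors 13 (38.2%) were called more often and 4 (11.8%) less often. With full lists 3 of 42 were called more often (7.14%) and 6 less often (14.3%), against 2.16% and 13.4% of all regions tested there. In contrast to the first counts, of the 17 shared regions of C-type lectin receptors 1 was stronger in cDC2 and 7 in cDC1.

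Growth factor receptors had regions of both directions in lists of equal length. The list held 42 tested regions, of which 5 (11.9%, against 20.7% of all regions) were called more often and 12 (28.6%, near the 25.6% of all regions) less often, 3 and 8 without the cDC1 library with narrow peaks. With full lists 0 of 67 were called more and 11 (16.4%) less often, against 2.16% and 13.4% of all regions tested there. With both list lengths 0 passed as more and 6 as less often called. Of the list's 67 shared regions 20 (29.9%) were stronger in cDC2 and 16 (23.9%) in cDC1, against 22.1% and 18.3% of all shared regions. Kit, the receptor for stem cell factor, had 5 of 9 less often and 1 more often called. A distal shared region of Kit (chr5:75672910-75673806) had ranks 13150 to 14837 in cDC1 and 29113 to 37860 in cDC2. Flt3, the receptor that supports all conventional DC, had 2 of 4 less often called and 4 of 6 shared regions stronger in cDC1; chr5:147353436-147356795 had ranks 5009 to 14923 in cDC1 (median 5572) and 24516 to 30625 in cDC2 (median 28279). Ifngr1 was open in all 12 libraries at its start (chr10:19591054-19592900), with ranks 908 to 1296 in cDC1 and 947 to 1522 in cDC2 (exact p = 0.425, adjusted p = 0.551). Which part of Ifngr1 is floxed is not given in the labels, so this value is no check of the deletion. A distal region at -37.9 kb (chr10:19553857-19554243) was called in 6 of 6 cDC1 but 0 of 6 cDC2 libraries.

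Among antigen presentation genes Wdfy4 held most of the regions less often called in cDC2. Of 47 tested regions of MHC class I and cross-presentation genes 19 (40.4%) were called less often and 4 (8.51%) more often in cDC2, and 16 of the 19 were at Wdfy4; the other 16 regions had 4 more and 3 less often called. Of 33 regions of MHC class II presentation genes 11 (33.3%) were called more often and 3 (9.09%) less often, and with both list lengths 2 and 0. Across all tested regions 20.7% were called more and 25.6% less often. With full lists the class II genes had 2 more and 1 less of 42 (4.76% and 2.38%). Ctsd, a lysosomal protease, had 3 of 4 and Lgmn, another, 2 of 4 more often called. H2-Aa, H2-Ab1 and H2-Eb1, the class II chains, had no tested region. Of the 61 shared regions of class II genes 18 (29.5%) were stronger in cDC2 and 12 (19.7%) in cDC1, against 22.1% and 18.3% of all shared regions. Genes of co-stimulation had 21 of 69 (30.4%) more and 8 (11.6%) less often called, with Cd86 at 4 and 1 of 12. With full lists co-stimulation genes had 5 more and 6 less of 86 (5.81% and 6.98%), against 2.16% and 13.4% of all regions tested there.

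**Figure D3:**
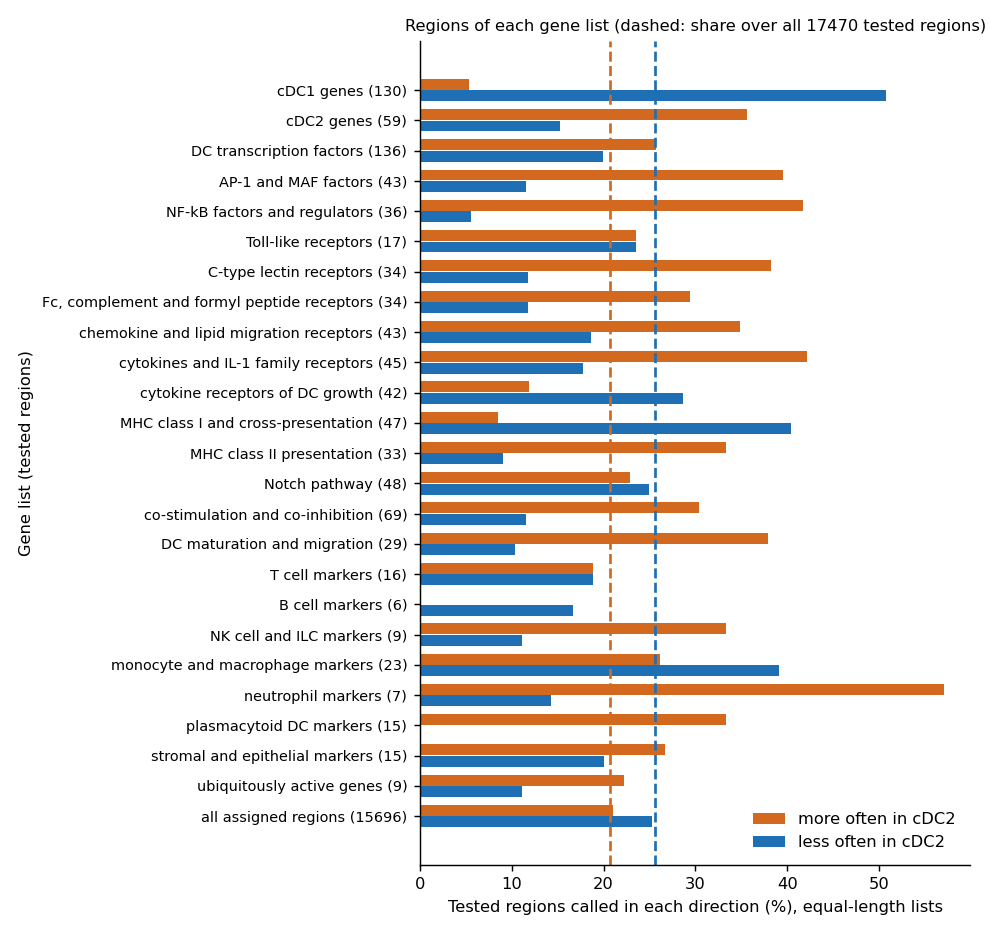
Share of the tested regions of each gene list that were called more often (orange) or less often (blue) in cDC2, with the number of tested regions in brackets; dashed lines are the shares over all tested regions, 20.7% and 25.6%. The cDC1 list has the longest blue bar and the cytokine, NF-κB and AP-1 lists have orange bars near 40%, while lists with under 10 regions have bars that rest on a few regions.

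Beyond these lists, Myo1e, a myosin of the cell cortex, had 8 of 11 tested regions called more often in cDC2, Bhlhe40, a transcriptional repressor, 6 of 7, Plaur, the urokinase receptor, 5 of 5 and Vegfa 4 of 6. At the start of Plaur (chr7:24460793-24463653) ranks were 2168 to 5648 in cDC2 (median 2541) and 24433 to 32047 in cDC1 (median 27981), one of the 5 widest gaps towards cDC2. The others were at Cadm3 (chr1:173365528-173368117, 3520 to 4938 against 26034 to 34222), Gas7, the distal region next to Syk, and Tmem189. Towards cDC1 the widest gaps were at 2 regions without a gene, at Galc (chr12:98244223-98245526, 4581 to 9967 against 27316 to 36688), Akap9 and Phc2. Cdk14 and Lrrc18, the latter inside Wdfy4, had 5 of 8 and 5 of 7 less often called, and Foxp1 had 10 less and 5 more of 26.

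Among regions with a peak in every library of one subset and in none of the other with either list length, 446 belonged to cDC2 and 1262 to cDC1. The strongest for cDC2 lay in Dagla (chr19:10289817-10291316, ranks 10145 to 13860), next to Ndrg1 and in Bub1b, Gramd1b and Retreg1. The strongest for cDC1 lay in 4932438H23Rik (chr16:91087447-91094074, mean rank 4210), in Maml3 (chr3:51723235-51724508, mean rank 5334), in Sorbs2, next to Ppt1 and next to Wdfy4 (chr14:32950020-32953796, ranks 2746 to 16681).

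**Figure D4:**
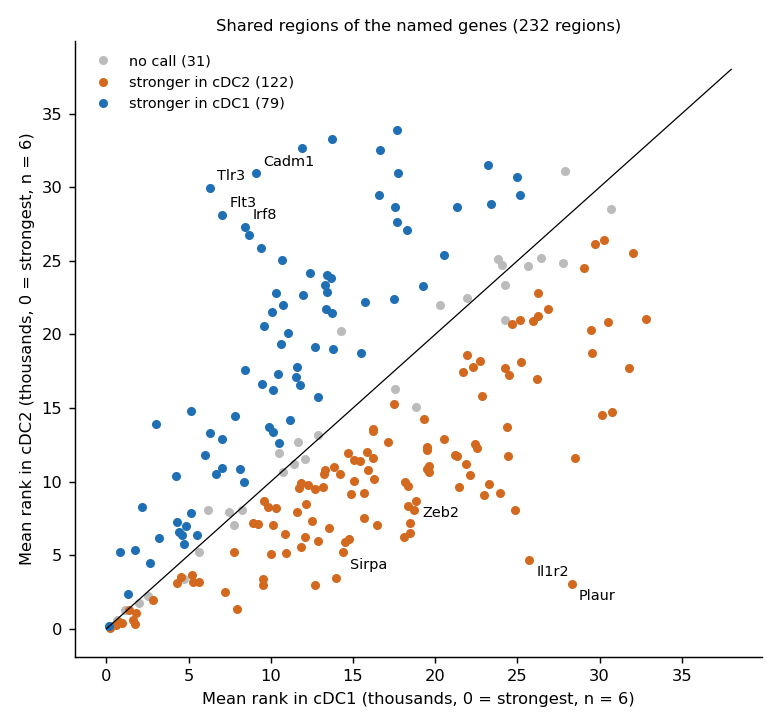
Mean rank in cDC1 (horizontal axis) and cDC2 (vertical axis) of the 232 regions of the named genes that were called in all 12 libraries; 122 were stronger in cDC2 (orange), 79 in cDC1 (blue) and 31 passed in neither direction (grey). Tlr3, Cadm1, Flt3 and Irf8 lie far above the line of equal rank, Plaur and Il1r2 far below it. Most of the genes were named for regions that differ, so the split is no estimate for all genes.

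Markers of other cells were looked up in the same lists. Regions of T cell markers with a peak numbered 15 to 23 in cDC1 and 17 to 34 in cDC2 libraries, B cell markers 11 to 13 and 9 to 13, NK cell and innate lymphoid markers 15 to 17 and 16 to 19, and monocyte and macrophage markers 24 to 37 and 29 to 33. Plasmacytoid DC markers had 30 to 39 in cDC1 and 39 to 43 in cDC2, and neutrophil markers 10 to 14 and 14 to 16. The ranges of these last 2 lists met only at their ends. Of 24 shared regions of plasmacytoid markers 6 were stronger in cDC2 and 9 in cDC1, and of 8 of neutrophil markers 1 and 2. Among all shared regions these shares were 22.1% and 18.3%. With full lists plasmacytoid markers had 1 more and 2 less often called of 25, and neutrophil markers 1 and 1 of 13. In lists of equal length 20.7% of all tested regions were called more and 25.6% less often. Of tested regions, plasmacytoid markers had 5 of 15 more and 0 less often called, neutrophil markers 4 of 7 and 1, monocyte markers 6 and 9 of 23, T cell markers 3 and 3 of 16, NK and innate lymphoid markers 3 and 1 of 9, B cell markers 0 and 1 of 6, and stromal markers 4 and 3 of 15. Most marker genes had a peak in some of the 12 full lists. They were 14 of 15 T cell, 11 of 12 B cell and 10 of 12 NK and innate lymphoid genes. The same held for 16 of 16 monocyte, 9 of 12 neutrophil, 11 of 12 plasmacytoid and 8 of 13 stromal genes. The genes with no peak in any full list were Cd3g, Fcer2a, Gzma, Gzmb, Camp, Elane, S100a8 and Klk1, and among stromal genes Col1a2, Dcn, Krt5, Krt14 and Prox1. Peak lists cannot give the share of another cell type, and its part in the results was not tested. Ubiquitously active genes had 2 more and 1 less often called of 9.

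The regions that separate the resident subsets were then looked up in the migratory DC libraries of the same floxed genotypes, cut to the same list length. This lookup was chosen after the data were seen. Of the 4475 regions less often called in cDC2, migDC1 libraries had a peak at 33.0 ± 0.79% (SD, n = 4), migDC2 at 15.9 ± 0.85% (n = 6) and DN migDC, negative for the markers of both, at 18.2 ± 2.03% (n = 6). Of the 3625 regions more often called in cDC2 the values were 30.6 ± 1.1%, 49.6 ± 0.85% and 44.3 ± 1.3%. Of all tested regions migDC1 libraries had a peak at 27.9 to 29.6%, migDC2 at 29.0 to 32.2% and DN migDC at 29.3 to 32.1%. Both migDC1 values were thus nearer to its share of all tested regions than those of migDC2 and DN migDC to theirs. migDC1 and migDC2 did not overlap in either set of regions (exact permutation within genotype, p = 0.02, the smallest these numbers allow, adjusted p = 0.024 over 12 tests). In each migDC2 and DN migDC library the cDC2 set was the more frequent of the pair, and in each migDC1 library the cDC1 set was. That order in migDC1 turned for the regions that passed with both list lengths: there migDC1 libraries had a peak at 28.7 to 30.3% of the cDC1 set and at 29.5 to 32.9% of the cDC2 set, the latter higher in each of the 4. All migDC1 libraries have lettered titles and the resident ones plain numbers; among lettered libraries only, the differences were 17.4 and -19.4 percentage points (exact p = 0.0556 for both, the smallest allowed).

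**Figure D5:**
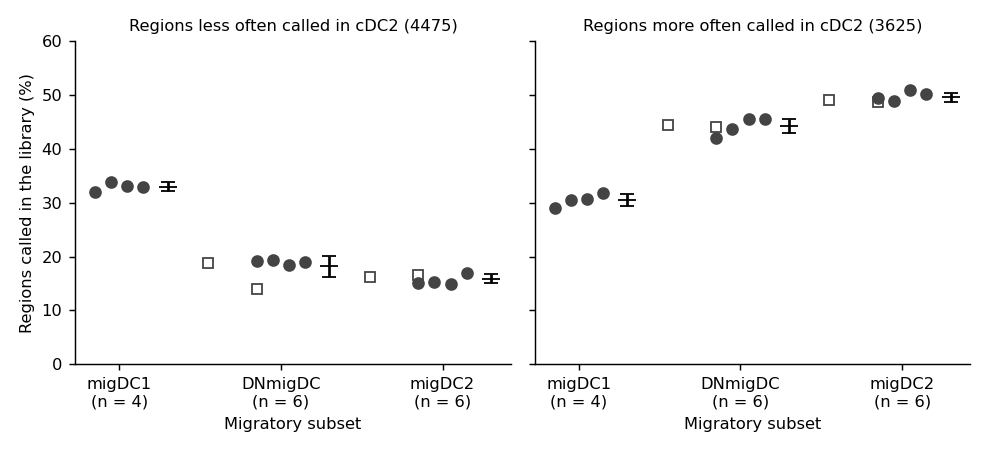
Percent of the regions less often (left) and more often (right) called in resident cDC2 that had a peak in each migratory library, cut to the same number of peaks. Open squares are libraries with plain numbered titles, filled circles those with lettered titles, and bars are the mean and SD; migDC1 sits between 32 and 33.9% on the left, above the other subsets, and between 29.1 and 31.8% on the right, below them.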

How the data were processed

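Open chromatin was profiled by Omni-ATAC-seq, and the deposited files are one narrowPeak list per library. Per the submitters' processing notes the tools were Bowtie2, deepTools and Genrich and the build mm10; for versions, peak settings and the Tn5 shift nothing is given in the sources used here. The signal that the authors deposited for each peak has a floor of 200 and ordered the peaks within a list. The −log10 p value at each summit, as deposited, broke ties and gave an alternative order. Without read counts the depth is unknown, and no counting interval was given.

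Only chromosomes 1 to 19 and X entered. Where peaks of 3 or more of the 32 libraries overlapped for 100 bp or more, a consensus region was drawn (90465, median width 569 bp). It was called in a library whose peak shared 50% or more of its own or the region's length. Each list was first reduced to its 38455 strongest peaks. Regions with a call in 3 to 9 of the 12 libraries entered an exact conditional test with genotype as stratum (400 relabelings, smallest two-sided p 0.005), and those called in all 12 an exact permutation test of the mean rank. Adjustment was by Benjamini-Hochberg over all regions tested. Regions went to RefSeq genes (GRCm38.p6) by a gene end within 1000 bp, else the gene body, else the nearest end within 50000 bp (distal), which says nothing about the gene they regulate. Kilobase values are from the nearest RefSeq start.

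Groups came from the labels. The 24 gene lists and the named genes were chosen with earlier results of these data known. The rule names 21 genes always, up to 4 genes per list and direction, 10 further genes per direction and the leading single regions; genes of the lists given in passing were chosen after their values were seen. The tests were tested on simulated data. Python 3.11.15, NumPy 2.4.6, pandas 2.3.3 and matplotlib 3.10.9 were used. Alternatives covered list length, overlap, consensus, strata, chromosomes, filter, ordering of peaks, gene end distance, each library left out and, chosen after the data were seen, each list without its leading gene.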

Additional observations from a re-analysis of the deposited data

Results flagged for a closer look

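The second Cre-negative cDC1 library lay far from the other 5 cDC1 libraries in 3 measures. Its median peak width was 389 bp, against 532 to 588 bp. The share of its kept peaks at gene ends was 32.14%, against 29.71 to 30.22%. Its mean Jaccard similarity to the other cDC1 libraries was 0.713, against 0.82 to 0.841. In each case the gap to the nearest library, over the whole range, was above Dixon's 95% critical value for 6 libraries.

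Among 6 DN migDC libraries the first Cre-positive one had a peak at 14.08% of the regions less often called in cDC2, against 18.53 to 19.42% in the others. For the regions that passed with both list lengths it had 8.15%, against 11.46 to 13.09%. Of 24 groups looked at, 5 gave such a value; chance gives about 1 in 20. In none of 9 measures of the lists did the difference between the subsets depend on genotype (smallest exact interaction p = 0.445).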

How the results depend on the processing

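No paired analysis was possible because the labels give no replicate numbers, and those used here only name libraries. The smallest p of the region test is 0.005, so calls need many separated regions. With no filter on calls 54015 regions were tested, the smallest adjusted p was 0.0617, and 0 regions passed in total and in either direction (8100 at an unadjusted p under 0.05). With full lists 4879 regions passed in place of 8100, 677 of them more often called in cDC2; with the 20000 strongest peaks 3590 (1712 more, 1878 less); with at least 50% of the region covered 3392 (1520 more, 1872 less). Other settings kept the counts within 1.5 times. Leaving out 1 library leaves fewer relabelings, so that only complete separations could pass: 4447 to 6124 regions in total, 2097 to 2397 more and 2346 to 3727 less often called, and every call was among the 8100 with the same direction. The most calls came without the cDC1 library with narrow peaks. Shared regions that differed in rank numbered 9522, and 4214 among the 20000 strongest peaks (2174 stronger in cDC2, 2040 in cDC1); with full lists 8067 were stronger in cDC2, where ranks come from lists of unequal length. Leaving out 1 library gave 6841 to 12576 in total, 3725 to 7033 stronger in cDC2 and 3116 to 5543 stronger in cDC1. The Jaccard difference was 0.158 to 0.185 over the settings and 0.178 to 0.204 with 1 library left out. The difference in peaks per list was -17264 to -12549 with 1 library left out, -5947 above a common signal (exact p = 0.06) and -5.51 Mb in bases covered (exact p = 0.225). The share of peaks at gene ends was higher in cDC2 by 0.44 percentage points (exact p = 0.31), by 4.72 with full lists (exact p = 0.01) and by 0.2 to 0.8 with 1 library left out; it passed without the cDC1 library with narrow peaks (0.8, exact p = 0.01). Counts per list and gene moved by over 1.5 times for 88 of 228 with full lists, 61 without distal regions and 37 without that library. The causes of these shifts were not tested.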
